A study of Homo sapiens with 9 samples.

Results

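The genes described here encode the subunits of the 3 nuclear RNA polymerases. They are the rows whose symbol starts with POLR1, POLR2 or POLR3 followed by a letter, antisense and pseudogene symbols left out, which gave 31 of the 26830 genes in the files. All 31 had enough reads to be tested. By the textbook assignment, 3 belong to RNA polymerase I (Pol I) alone, 2 are shared by Pol I and Pol III, 5 are shared by all 3 enzymes, 9 belong to Pol II alone and 10 to Pol III alone. POLR2M associates with Pol II without being a core subunit, and POLR2J4, which RefSeq lists as a transcribed pseudogene, meets the rule on symbols and was assigned to no enzyme.

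Cells labelled NB4, a human promyelocytic leukaemia line that the labels also call acute monocytic leukaemia, were cultured for 48 h with FB23-2, with FB23 or with the solvent DMSO. Both compounds are presented in the series as inhibitors of FTO, an RNA m6A demethylase, and the labels give no dose. Poly(A) RNA was sequenced in 3 libraries per group, 9 in all, with 12360291 to 38410750 expected counts per library. Nothing in the labels says that the libraries of a group came from separate cultures, so p-values measure only the spread between these libraries, which may be technical.

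Each nuclear RNA polymerase transcribes its own set of genes. Pol I makes the precursor of the large ribosomal RNAs, Pol II makes messenger RNAs, and Pol III makes transfer RNAs and other short RNAs that protein synthesis and RNA processing depend on. The enzymes share a common core: a large and a second-largest catalytic subunit specific to each, an assembly platform, and a set of small subunits present in all of them. In growing cells the output of Pol I and Pol III tracks growth, and MYC is a known activator of both and of genes for their subunits. The data here are levels of subunit mRNAs, not of proteins or of polymerase activity.

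The libraries went against their cell label on granule and erythroid markers, while a myeloid surface marker was present. The granule genes MPO and CTSG of promyelocytes had no read in any library, ELANE had 1 read over all 9, and PRTN3 and AZU1 reached at most 0.76 and 1.77 TPM (abundance scaled for transcript length and library total). CD33, a surface protein of myeloid cells, averaged 44.4 TPM with FB23-2, 38.8 TPM with FB23 and 44.0 TPM with DMSO, and ITGAM, another, 3.63, 2.54 and 4.45 TPM in the same order of groups. The 4 erythroid genes examined (HBG2, HBZ, HBA1 and KLF1) summed to between 2251 and 2585 TPM in FB23-2 libraries, between 22756 and 24510 in FB23 libraries and between 19813 and 20981 in DMSO libraries. The 2 epithelial genes examined differed from each other: EPCAM averaged 25.5 TPM with FB23-2, 54.2 TPM with FB23 and 73.5 TPM with DMSO, and KRT19 averaged 621, 67.9 and 89.4 TPM in the same order of groups. The erythroid and epithelial values moved in the same libraries as the subunit genes below, and their part in those results was not tested. In bulk RNA, fewer cells of a type and less RNA per cell cannot be told apart.

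Levels of different genes are compared in TPM. In DMSO libraries the highest subunit mRNA was POLR2G, which with POLR2D forms the stalk of Pol II, at 319 ± 5.9 TPM (SD, n = 3). The small Pol III subunit POLR3K followed at 297 ± 2.0 TPM, and POLR2E, present in all 3 enzymes, at 153 ± 3.3 TPM. At the other end, POLR2J2 stood at 6.14 ± 1.2 TPM and POLR2J4 at 1.62 ± 0.13 TPM. The median DMSO level was 111 TPM for the 5 genes shared by all enzymes, 96.7 TPM for the 9 Pol II genes, 51.2 TPM for the 3 Pol I genes and 28.7 TPM for the 10 Pol III genes. With FB23-2 those medians were 54.2, 75.3, 13.0 and 13.7 TPM in the same order of gene groups, so the Pol II median lay above the shared one. The levels of single genes overlapped there, at 5.16 to 203 TPM for Pol II and 8.62 to 86.7 TPM for the shared genes.

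**Figure D1:**
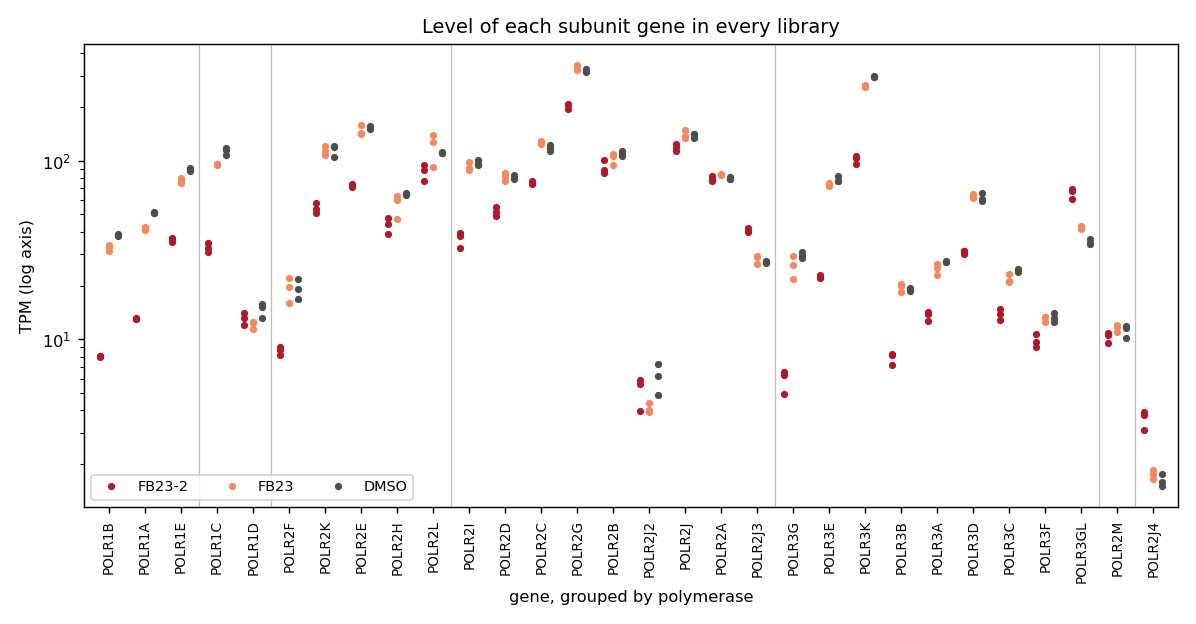
TPM (log axis) of 30 of the subunit genes, grouped by polymerase along the horizontal axis with grey lines between groups (Pol I only, Pol I and III, all 3, Pol II only, Pol III only, POLR2M, POLR2J4); each point is 1 library, 3 per group, with FB23-2 in red, FB23 in orange and DMSO in grey. The FB23-2 points of POLR1A, near 13 TPM, lie far below the DMSO points near 51 TPM, those of POLR2A overlap with DMSO at about 80 TPM, and those of POLR3GL, at 61.5 to 69.4 TPM, lie above DMSO.

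With FB23-2, most subunit mRNAs fell. By median, those of Pol I alone and of Pol III alone fell further than those of Pol II alone. Of the 31 genes, 28 were lower and 3 were higher than in DMSO at an adjusted p under 0.05 (edgeR quasi-likelihood test, Benjamini-Hochberg adjustment over 13365 genes). FB23-2 changed much of the transcriptome: 41.3% of all tested genes were called lower, 41.3% higher and 82.6% in either direction, so a call alone sets no gene apart. The values of the 3 libraries per group did not overlap for 30 of the 31 subunit genes, and for 84.2% of all tested genes. In size the subunit genes had a median log2 fold change of -1.07, against 0.01 over all tested genes, and 16 of the 31 lay below -1, which 16.1% of all tested genes did.

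Between the enzymes the medians were -2.22 for the 3 genes of Pol I alone, -1.39 for the 10 of Pol III alone, -1.33 for the 5 shared by all and -0.51 for the 9 of Pol II alone. These correspond to 21.4%, 38.0%, 39.9% and 70.2% of the DMSO level. Without the near copies POLR2J, POLR2J2 and POLR2J3 the Pol II median moved to -0.89. Without POLR3GL, the Pol III gene that rose, the Pol III median was -1.53. The order of the medians stayed the same, with the Pol II median closer to that of the shared genes. These medians were not taken again under the correction and scale below. The places of the Pol III and shared genes are close: with CRCP, a Pol III subunit filed under another symbol, added, the Pol III median was -1.26, nearer to 0 than that of the shared genes. After a correction for GC content and length, chosen after seeing the data, the median of the shared genes was -0.75, close to the -0.53 of the Pol II genes, while those of Pol I and Pol III were -2.52 and -1.38. The scale of the libraries matters for the smaller changes. On log2(TPM + 0.1), without further scaling, the median of all tested genes was itself 0.25 higher with FB23-2, and the medians of the subunit groups were -1.97 (Pol I), -1.14 (Pol III), -1.08 (shared) and -0.26 (Pol II), in the same order.

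**Figure D2:**
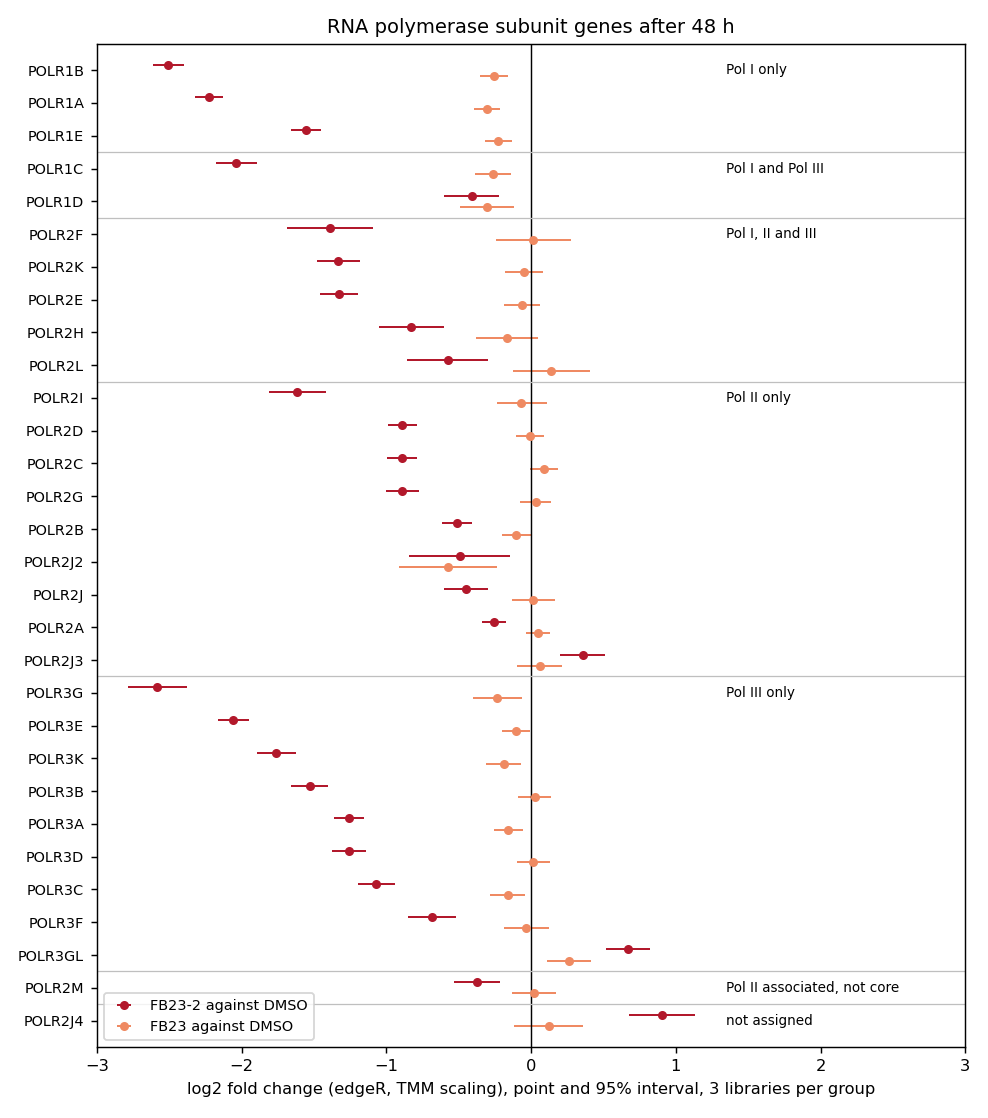
Log2 fold change (horizontal axis, TMM scaling) of 30 of the subunit genes with its 95% interval, with FB23-2 against DMSO in red above FB23 against DMSO in orange, 3 libraries per group; genes are grouped by polymerase, and a vertical line marks no change. The FB23-2 points reach -2.51 for POLR1B and -2.58 for POLR3G, while all 30 FB23 points lie between -0.57 and 0.26.

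POLR1A, the largest and catalytic subunit of Pol I, had 69.8, 68.6 and 63.9 CPM (reads scaled to the library total, itself adjusted by TMM factors) in the FB23-2 libraries, 253, 257 and 256 CPM in the FB23 libraries and 319, 317 and 310 CPM in the DMSO libraries. The 3 groups did not overlap, and FB23-2 stood lowest. Its log2 fold change with FB23-2 was -2.22 ± 0.05 (SE), or 4.67-fold lower, with an edgeR adjusted p of 3.05e-17. POLR1B, the second-largest subunit, had 25.8, 25.1 and 23.5 CPM with FB23-2, 120, 119 and 117 CPM with FB23 and 145, 138 and 141 CPM with DMSO. It fell 5.68-fold with FB23-2 (log2 fold change -2.51 ± 0.05), further than POLR1A, and the groups were again apart. POLR1E, which takes part in Pol I initiation as one member of a heterodimer, had 36.4, 38.0 and 34.7 CPM with FB23-2, 91.9, 91.0 and 91.7 CPM with FB23 and 107, 108 and 106 CPM with DMSO, a 2.94-fold fall with FB23-2.

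The remaining Pol I subunits stand in the files under older symbols and so lie outside the rule. CD3EAP, the partner of POLR1E, had 8.73, 7.82 and 7.23 CPM with FB23-2, 52.9, 52.6 and 50.5 CPM with FB23 and 79.3, 72.8 and 75.8 CPM with DMSO. This was a 9.48-fold fall with FB23-2 (log2 fold change -3.24 ± 0.07, edgeR adjusted p 7.94e-17), beyond that of any of the 31 genes. ZNRD1, which serves RNA cleavage in Pol I, fell by 2.29 and TWISTNB, of the Pol I stalk, by 1.88 on the log2 scale with FB23-2. All 6 genes of Pol I alone, with these 3 included, were thus lower with FB23-2, with a median of -2.25.

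POLR1C and POLR1D form the assembly platform that Pol I and Pol III have in common, and their mRNAs behaved differently from each other. Each value refers to the 1 transcript listed for the gene, and other transcripts were not tested. POLR1C had 16.2, 16.98 and 14.3 CPM with FB23-2, 52.4, 54.4 and 55.6 CPM with FB23 and 66.6, 67.3 and 61.6 CPM with DMSO. It fell 4.10-fold with FB23-2. POLR1D had 16.8, 14.3 and 14.8 CPM with FB23-2, 16.7, 16.7 and 16.2 CPM with FB23 and 22.3, 20.9 and 18.0 CPM with DMSO. The POLR1D fall was 1.33-fold (log2 fold change -0.41 ± 0.09, edgeR adjusted p 0.00043), and its 95% interval of -0.60 to -0.22 lay apart from the POLR1C interval of -2.18 to -1.89. POLR1D lost its call on the TPM scale, where its FB23-2 and DMSO libraries overlapped, and after the correction for GC content and length (-0.13, adjusted p 0.142).

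The promoters of POLR3A, POLR3C and POLR3E are printed because they hold the E-box CACGTG, the palindromic sequence that MYC binds with its partner MAX, and that of POLR3GL because this gene moved the other way. Each run gives 250 bases before and 20 after the gene start on the gene's own strand, from RefSeq on GRCh38.p14. Capitals mark the E-box and, in POLR3E, a second motif described below.
POLR3A (chr10:78029496-78029765, minus strand): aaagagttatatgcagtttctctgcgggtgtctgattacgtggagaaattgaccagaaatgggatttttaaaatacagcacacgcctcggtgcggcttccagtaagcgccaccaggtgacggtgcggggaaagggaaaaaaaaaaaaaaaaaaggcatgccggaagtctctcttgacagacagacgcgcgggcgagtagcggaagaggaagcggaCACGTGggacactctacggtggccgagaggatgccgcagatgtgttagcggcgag
POLR3C (chr1:145823950-145824219, plus strand): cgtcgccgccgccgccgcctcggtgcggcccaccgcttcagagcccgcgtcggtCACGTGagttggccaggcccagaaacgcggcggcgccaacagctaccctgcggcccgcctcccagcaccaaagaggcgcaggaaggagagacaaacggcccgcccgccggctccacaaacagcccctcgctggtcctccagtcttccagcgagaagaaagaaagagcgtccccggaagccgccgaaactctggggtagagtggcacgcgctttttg
POLR3E (chr16:22297159-22297428, plus strand): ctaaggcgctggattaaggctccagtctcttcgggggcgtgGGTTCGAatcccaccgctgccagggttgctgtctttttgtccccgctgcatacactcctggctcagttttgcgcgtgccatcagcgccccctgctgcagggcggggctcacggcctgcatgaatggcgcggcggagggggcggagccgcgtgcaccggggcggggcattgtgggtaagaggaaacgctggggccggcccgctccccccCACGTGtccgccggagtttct
POLR3GL (chr1:145964440-145964709, plus strand): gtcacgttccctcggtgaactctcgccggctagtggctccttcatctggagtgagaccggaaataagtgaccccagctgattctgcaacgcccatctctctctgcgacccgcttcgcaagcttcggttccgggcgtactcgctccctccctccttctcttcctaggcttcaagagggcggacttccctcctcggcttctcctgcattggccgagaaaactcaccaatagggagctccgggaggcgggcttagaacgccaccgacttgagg

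The E-box starts at position -35 in POLR3A, at -196 in POLR3C and at -1 in POLR3E, counted from the gene start. POLR3C has a pair of starts: the window with the motif is the one printed, and that of the other start held no E-box. RefSeq windows of 300 bases (250 before to 50 after the start) were at hand for 21 of the 31 genes, 27 windows in all because some genes have a pair of starts. The motif, which reads the same on both strands, was found in 3 of the 27 windows (11.1%), against 9.42% of the 14162 windows of tested genes and 7.26% of all 35116 windows. All 3 matches were in Pol III genes. The window of POLR3E also holds a match to the first 7 letters, GGTTCGA, of the B box, an element inside tRNA genes that Pol III factors recognise, starting at -209. This motif was searched on both strands after the POLR3E window had been read, and it occurs in 1.07% of the windows of tested genes. Letters in a window are a description, and binding was not measured.

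MYC itself, the 1 gene named outside the lists, had 300, 302 and 265 CPM with FB23-2, 822, 825 and 851 CPM with FB23 and 1038, 1027 and 1016 CPM with DMSO. It fell 3.55-fold with FB23-2 and 1.23-fold with FB23, with the 3 groups apart. The part of MYC in the subunit values was not tested.

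Among the Pol III genes, both catalytic subunits fell, POLR3B somewhat further. POLR3A, the largest subunit, had 51.9, 55.7 and 54.4 CPM with FB23-2, 121, 116 and 111 CPM with FB23 and 131, 127 and 130 CPM with DMSO. POLR3B, the second-largest, had 18.3, 20.5 and 19.6 CPM with FB23-2, 58.3, 57.6 and 55.5 CPM with FB23 and 55.7, 56.5 and 56.1 CPM with DMSO. FB23-2 lay far below both other groups for each gene, with log2 fold changes of -1.26 ± 0.05 for POLR3A and -1.53 ± 0.06 for POLR3B against DMSO.

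The subunits that Pol III uses to open promoters and to terminate spread more widely. POLR3D and POLR3E pair into a module that resembles an initiation factor of Pol II, and POLR3E fell further (4.17-fold) than POLR3D (2.39-fold) with FB23-2. POLR3E had 47.4, 48.5 and 44.6 CPM with FB23-2, 174, 182 and 188 CPM with FB23 and 194, 190 and 202 CPM with DMSO. CRCP fell 2.12-fold. POLR3K, which serves RNA cleavage and termination, fell 3.39-fold. POLR3C and POLR3F, both of the trimer that contacts the initiation factors, fell 2.10-fold and 1.61-fold. The POLR3F fall was the smallest among the Pol III genes that fell, at 11.2, 11.7 and 12.4 CPM with FB23-2, 18.4, 18.6 and 18.2 CPM with FB23 and 18.1, 19.9 and 18.5 CPM with DMSO.

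The remaining place in that trimer is taken by either of 2 related proteins, POLR3G or POLR3GL, and these moved in opposite directions. POLR3G had 9.42, 12.2 and 11.2 CPM with FB23-2, 62.0, 56.3 and 48.8 CPM with FB23 and 63.7, 67.3 and 63.5 CPM with DMSO. It had the largest fall of the 31 genes with FB23-2, 5.98-fold (log2 fold change -2.58 ± 0.10, edgeR adjusted p 5.94e-14). POLR3GL had 35.2, 31.4 and 33.6 CPM with FB23-2, 23.4, 25.3 and 26.3 CPM with FB23 and 20.8, 21.7 and 20.5 CPM with DMSO. The 3 groups of POLR3GL did not overlap, and it rose 1.59-fold with FB23-2 (log2 fold change 0.67 ± 0.07, edgeR adjusted p 1.09e-07).

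Within a library, the ratio of 2 genes is free of library scaling. The TPM of POLR3G divided by that of POLR3GL was 0.0728, 0.106 and 0.0910 with FB23-2, 0.703, 0.604 and 0.509 with FB23 and 0.829, 0.843 and 0.838 with DMSO. The 3 groups did not overlap, and the FB23 libraries lay between the others. Their summed TPM was 72.9, 68.0 and 75.7 with FB23-2, 70.5, 69.4 and 64.6 with FB23 and 62.9, 67.3 and 63.9 with DMSO. Unlike the ratio, the sum depends on library scale: its mean TPM was 0.16 higher on the log2 scale with FB23-2 than with DMSO, against 0.25 higher for the median of all tested genes, so relative to that median it was 0.09 lower. These ratios and sums are a description with no test.

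**Figure D3:**
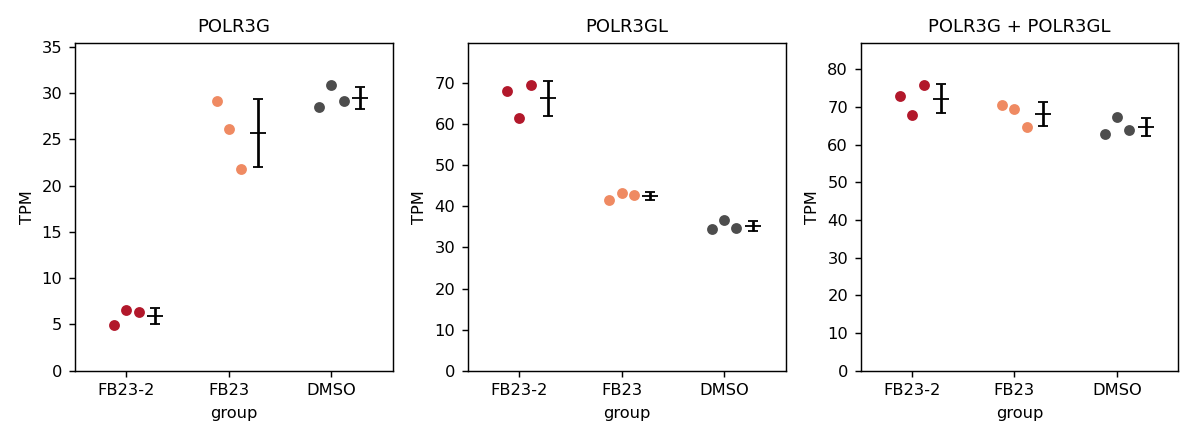
TPM (vertical axes from 0) of POLR3G, POLR3GL and their sum in FB23-2, FB23 and DMSO libraries from left to right; points are the 3 libraries of a group, and the black mark with its bar is the mean ± SD. POLR3G lies at 4.95 to 6.52 TPM with FB23-2 against 28.5 to 30.8 TPM with DMSO, POLR3GL at 61.5 to 69.4 TPM against 34.4 to 36.5 TPM, and the sums lie between 62.9 and 75.7 TPM in all 9 libraries.

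The small subunits present in all 3 enzymes fell with FB23-2 in 5 of 5 cases. POLR2E, the jaw subunit, had 110, 111 and 100 CPM with FB23-2, 242, 244 and 283 CPM with FB23 and 277, 260 and 268 CPM with DMSO, a 2.51-fold fall with FB23-2. POLR2K, a small zinc-binding subunit, fell 2.52-fold and POLR2F, which binds near the base of the clamp, fell 2.62-fold, while POLR2H fell 1.77-fold. POLR2L, which joins the assembly platform, had 29.3, 30.6 and 23.8 CPM with FB23-2, 32.5, 47.1 and 54.8 CPM with FB23 and 42.1, 41.3 and 41.9 CPM with DMSO. Its 1.49-fold fall with FB23-2 (log2 fold change -0.58 ± 0.13) was the smallest of the 5. The FB23 libraries of POLR2L were spread widely, with replicate 1 lowest. That library was the shallowest and had the longest estimated fragments, at 399 bases against 373 and 367 in the other FB23 libraries. The part of either in the spread was not tested.

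The Pol II genes had the median nearest to 0. POLR2A, its largest and catalytic subunit, had 321, 323 and 319 CPM with FB23-2, 388, 397 and 406 CPM with FB23 and 386, 380 and 387 CPM with DMSO. FB23-2 lay below both other groups by a margin wider than the spread within them, with a log2 fold change of -0.26 ± 0.04 against DMSO (edgeR adjusted p 8.48e-06). That call depends on the scale: in TPM the groups overlapped, at 77.0, 78.9 and 82.5 with FB23-2 and 78.9, 79.5 and 81.1 with DMSO. POLR2B, the second-largest subunit, had 212, 202 and 225 CPM with FB23-2, 296, 288 and 268 CPM with FB23 and 298, 312 and 302 CPM with DMSO, a 1.43-fold fall with FB23-2. POLR2C, of the assembly platform, and the stalk pair POLR2D and POLR2G each stood near 54% of DMSO, with log2 fold changes of -0.89 ± 0.05 for all 3.

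POLR2I, a Pol II subunit that serves transcript fidelity and start-site choice, stood apart within its enzyme. It had 12.9, 12.2 and 10.03 CPM with FB23-2, 31.9, 33.0 and 38.2 CPM with FB23 and 35.7, 37.5 and 35.5 CPM with DMSO. It fell 3.07-fold with FB23-2, with a log2 fold change of -1.62 and a 95% interval of -1.81 to -1.42. That interval overlapped that of POLR1E (-1.66 to -1.45), so the Pol I and Pol II genes were not fully separate. Nor were those of Pol II and Pol III. The POLR2I fall lay beyond those of POLR3A (-1.26), POLR3C (-1.07) and POLR3D (-1.26), but short of those of POLR3E, POLR3G and POLR3K. POLR3F, at -0.68, had a smaller fall than POLR2C, POLR2D and POLR2G, at -0.89 each. POLR2M, known to restrain Pol II, had a log2 fold change of -0.37 ± 0.08 and lost its call on the TPM scale.

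POLR2J, of the Pol II assembly platform, has near-identical copies, and reads were divided among them: the deposited counts of POLR2J, POLR2J2, POLR2J3 and POLR2J4 were fractional in all 9 libraries, so their separate values are uncertain. POLR2J fell 1.37-fold with FB23-2. POLR2J3 had 36.1, 34.4 and 31.8 CPM with FB23-2, 24.9, 27.9 and 29.6 CPM with FB23 and 27.1, 26.3 and 26.7 CPM with DMSO, and was 1.28-fold higher with FB23-2 than with DMSO. POLR2J4 had 15.1, 12.3 and 14.6 CPM with FB23-2, 7.46, 8.42 and 8.26 CPM with FB23 and 7.07, 7.30 and 8.08 CPM with DMSO, and was 1.87-fold higher. POLR2J2, with 5.98, 4.09 and 5.77 CPM with FB23-2 and 5.97, 8.87 and 7.53 CPM with DMSO, was called lower (log2 fold change -0.49 ± 0.16, edgeR adjusted p 0.010) although its groups overlapped. Its call was lost without DMSO replicate 2 (-0.36, adjusted p 0.0755) and without FB23-2 replicate 2 (-0.35, adjusted p 0.0602). The call also depended on scaling: it was lost with upper-quartile factors (-0.32), on library totals (-0.35) and on log2(TPM + 0.1) (-0.25). POLR2J itself held 69.9%, 72.3% and 69.5% of the summed TPM of the 4 copies with FB23-2, 80.8%, 79.8% and 81.0% with FB23 and 80.8%, 79.7% and 79.2% with DMSO.

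Set side by side in the same libraries, the catalytic subunits of the enzymes kept the order of the medians. The TPM of POLR1A divided by that of POLR2A was 0.170, 0.166 and 0.157 with FB23-2, 0.508, 0.506 and 0.493 with FB23 and 0.645, 0.653 and 0.627 with DMSO. For POLR3A over POLR2A the ratios were 0.164, 0.175 and 0.173 with FB23-2, 0.317, 0.298 and 0.278 with FB23 and 0.345, 0.340 and 0.340 with DMSO. In both ratios the 3 groups were apart, and FB23 lay between FB23-2 and DMSO. The second-largest subunits differed with FB23: POLR1B over POLR2B was 0.306 to 0.329 with FB23 and 0.334 to 0.367 with DMSO, whereas POLR3B over POLR2B was 0.186 to 0.195 with FB23, above its 0.171 to 0.176 with DMSO. With FB23-2 these ratios were 0.0786 to 0.0936 for POLR1B and 0.0814 to 0.0953 for POLR3B. In the fitted log2 fold changes with FB23-2, the 95% intervals of the largest subunits lay apart, at -2.32 to -2.13 for POLR1A, -1.36 to -1.16 for POLR3A and -0.34 to -0.18 for POLR2A.

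**Figure D4:**
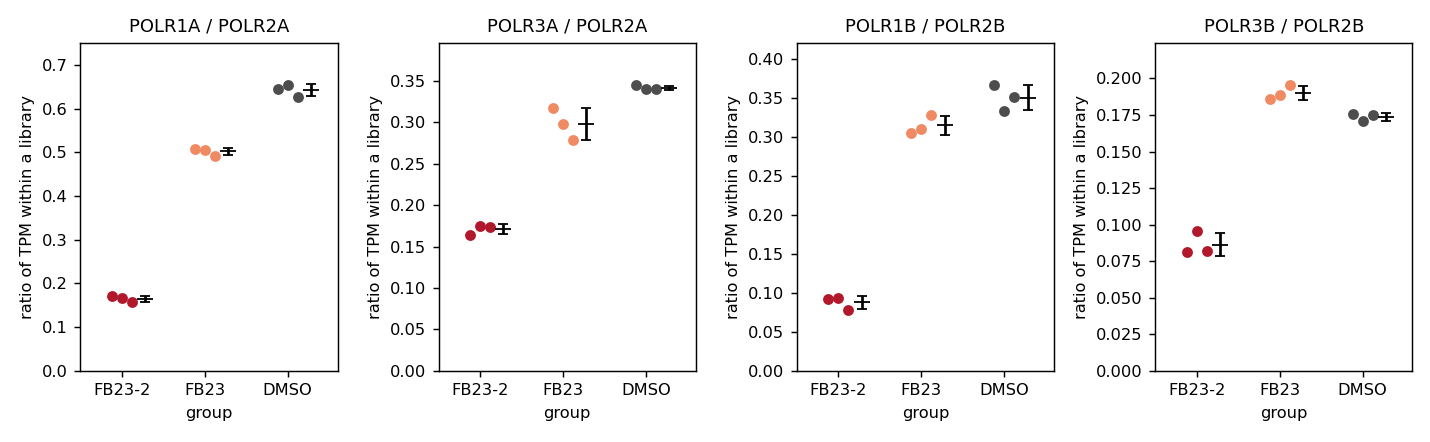
TPM of the largest (POLR1A, POLR3A) and second-largest (POLR1B, POLR3B) subunits of Pol I and Pol III divided by that of the matching Pol II subunit in the same library (vertical axes from 0), in FB23-2, FB23 and DMSO libraries from left to right; points are the 3 libraries of a group, and the black mark with its bar is the mean ± SD. POLR1A over POLR2A is at 0.157 to 0.170 with FB23-2, 0.493 to 0.508 with FB23 and 0.627 to 0.653 with DMSO.

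Factors that work with the polymerases were read from lists, of which the 2 highest and 2 lowest called members with FB23-2 are named. Of 6 Pol I factors tested, 3 fell and 1 rose with FB23-2 (median -0.24, against 0.01 over all tested genes). UBTF, which binds ribosomal DNA, had a log2 fold change of -1.55 ± 0.04 and TAF1A, of the Pol I selectivity factor, one of -1.31 ± 0.12. TTF1, the Pol I terminator protein, followed at -0.37 ± 0.08, and TAF1D, of the same selectivity factor as TAF1A, at 0.22 ± 0.07. TTF1 lost its call on the TPM scale.

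Of 17 Pol III genes outside the rule, 13 fell and 2 rose (median -0.54). GTF3C6, a subunit of the factor that binds tRNA genes, had a log2 fold change of -2.68 ± 0.06 with FB23-2, and GTF3A, which recruits it to the genes of the smallest ribosomal RNA, one of -2.06 ± 0.05. GTF3C1, the largest subunit of the same factor as GTF3C6, was at 0.30 ± 0.04 (edgeR adjusted p 1.16e-06), but was called lower, at -0.20 (adjusted p 9.61e-07), after the correction for GC content and length. MAF1, the repressor of Pol III, was at 0.15 ± 0.05 and lost its call without DMSO replicate 2 (0.13, adjusted p 0.0662) and after the same correction.

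All 16 listed general factors of Pol II were called lower with FB23-2, with a median of -0.56. The list holds initiation factors and an elongation factor, and not all of them serve Pol II alone. The furthest were GTF2H2 at -1.62 ± 0.12, of the factor that opens promoters, and GTF2F2 at -1.23 ± 0.07, of the factor that escorts Pol II to them. The nearest to 0 were GTF2B at -0.16 ± 0.07, which bridges the promoter and the enzyme, and GTF2A1 at -0.21 ± 0.07, both positive and not called on the TPM scale. GTF2B was called higher after the correction for GC content and length (0.26, adjusted p 0.000475), so not all 16 calls were lower there. GTF2B also lost its call without any one of 6 libraries (adjusted p up to 0.115, without DMSO replicate 2), and GTF2A1 without FB23-2 replicate 1 (adjusted p 0.103). All 7 assembly and transport factors of Pol II were lower as well (median -0.56), led by GPN1 at -1.29 ± 0.06 and GPN3 at -1.26 ± 0.06, GTPases needed for nuclear import of Pol II, with RPAP3 at -0.33 ± 0.06 and RPAP1 at -0.29 ± 0.05 nearest to 0. RPAP1 and RPAP3 lost their calls on the TPM scale.

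The mitochondrial RNA polymerase system, a separate enzyme with its own factors, was lower with FB23-2 in 4 of 4 genes (median -1.37). TFB2M, its initiation factor, had a log2 fold change of -2.74 ± 0.07 and TFAM, which packages mitochondrial DNA, one of -1.49 ± 0.06. POLRMT, the polymerase, was at -1.24 ± 0.07 and TFB1M, a ribosomal RNA methyltransferase, at -1.18 ± 0.10.

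With FB23 the changes were small and clearest in Pol I. Of the 31 genes, 11 were lower, 1 was higher and 19 were not called against DMSO (edgeR quasi-likelihood test), where 11.2% of all tested genes were called lower, 12.3% higher and 23.5% in either direction. The groups did not overlap for 15 of the 31 genes, and for 37.9% of all tested genes. The median log2 fold change of the 31 was -0.07, against 0.00 over all tested genes, and it depended on single libraries, at -0.12 without FB23 replicate 3, -0.04 without FB23 replicate 1 and -0.04 without FB23 replicate 2. By symbol, 5 of 5 POLR1 genes were lower, 5 of 10 POLR3 genes were lower and 1 higher, and 1 of 16 POLR2 genes was lower, and this 1 gene, POLR2J2, is not among the 5 subunits shared by all enzymes. These comparisons share the DMSO libraries with those of FB23-2 above.

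The POLR1 genes had similar log2 fold changes with FB23. They were -0.31 ± 0.04 for POLR1A (edgeR adjusted p 7.86e-05), -0.26 ± 0.05 for POLR1B, -0.27 ± 0.06 for POLR1C, -0.31 ± 0.09 for POLR1D and -0.23 ± 0.05 for POLR1E, each between 80% and 86% of DMSO. Of the older symbols, CD3EAP was lower at -0.55 ± 0.06, while TWISTNB at -0.13 ± 0.07 and ZNRD1 at -0.18 ± 0.13 were not called. POLR1D was not called by edgeR when DMSO replicate 1 was left out (-0.24, adjusted p 0.11), nor in the fits that lacked DMSO replicate 2 (0.0697) and FB23 replicate 2 (0.0501), and ZNRD1 gained a call without FB23 replicate 3 (-0.38, adjusted p 0.0175). The calls of POLR1A, POLR1B, POLR1C and POLR1E remained whichever library was left out.

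In Pol III, POLR3G at -0.23 ± 0.08, POLR3K at -0.19 ± 0.06, POLR3A at -0.16 ± 0.05 and POLR3C at -0.16 ± 0.06 were called at edgeR adjusted p of 0.0434, 0.0254, 0.0231 and 0.0455. Each of these 4 calls was lost when any of at least 5 libraries was left out, with adjusted p up to 0.175 for POLR3G (without FB23 replicate 3), 0.0996 for POLR3K (without DMSO replicate 1), 0.0906 for POLR3A and 0.155 for POLR3C (both without DMSO replicate 1). POLR3GL was 1.2-fold higher (log2 fold change 0.26 ± 0.07, edgeR adjusted p 0.014), a call lost without DMSO replicate 1 (adjusted p 0.0516) or DMSO replicate 3 (adjusted p 0.053). CRCP was at -0.28 ± 0.07 (edgeR adjusted p 0.011), lost without DMSO replicate 1 (adjusted p 0.0566) and on the TPM scale. With all 9 libraries kept, the calls of POLR3G, POLR3K, POLR3A and POLR3C were lost when replicate number was added to the model (edgeR adjusted p 0.0544 to 0.0884). Those of POLR3G, POLR3A and POLR3C were also lost on library totals and on the TPM scale.

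POLR2J2 was the 1 POLR2 gene called with FB23, at -0.57 ± 0.16 (edgeR adjusted p 0.017), with 4.59, 5.29 and 5.02 CPM with FB23 and 5.97, 8.87 and 7.53 CPM with DMSO. The call was lost without DMSO replicate 2 (-0.43, adjusted p 0.114), the highest of its libraries, and its reads are shared with its copies. POLR2A, at 0.05 ± 0.04, and POLR2B, at -0.10 ± 0.05, were not called although their FB23 and DMSO libraries did not overlap. Their 95% intervals ran from -0.03 to 0.13 for POLR2A and from -0.20 to 0.00 for POLR2B, which bound the change that these libraries allow. POLR2L, POLR2E and POLR2H gained an edgeR call when 1 FB23 library was left out. For POLR2L this was replicate 1 (0.29, adjusted p 0.0179). For POLR2E (-0.14, adjusted p 0.0415) and POLR2H (-0.27, adjusted p 0.0471) it was replicate 3. Under the correction for GC content and length, POLR2B (-0.09, edgeR adjusted p 0.0169) and POLR2E (-0.10, adjusted p 0.0245) were called lower. POLR2C (0.10, adjusted p 0.0313) was called higher there, and POLR3E of Pol III (-0.12, adjusted p 0.00442) lower.

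The related lists were counted in the same way with FB23, where 11.2% of all tested genes were called lower. Lower were 1 of 3 older Pol I symbols, 1 of 6 Pol I factors and 6 of 17 Pol III genes outside the rule. So were 2 of 16 general factors of Pol II, 1 of 7 assembly factors and 1 of 4 mitochondrial genes. Among 3 to 7 genes a single call already exceeds that share, and 2 of 16 is near it. The medians of these lists with FB23 were -0.18, -0.12, -0.07, -0.06, -0.05 and -0.13 in that order. Besides CD3EAP, and picked out after their values were seen, the called genes of the shorter counts were UBTF at -0.31 ± 0.04, GTF2H2 at -0.52 ± 0.11, ERCC2 at -0.21 ± 0.06, GPN1 at -0.17 ± 0.05 and TFB2M at -0.41 ± 0.06, and RPAP3 was called higher at 0.17 ± 0.06. The call of ERCC2, a helicase of the factor that opens promoters, needed DMSO replicate 3 (edgeR adjusted p 0.074 when it was left out), and those of GPN1 and RPAP3 were lost when any of at least 5 libraries was left out (adjusted p up to 0.128 and 0.169).

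FB23-2 and FB23 were compared directly at their common time of 48 h, with the doses unknown. Of the 31 genes, 26 were lower and 3 were higher with FB23-2 than with FB23, and 2 were not called (edgeR quasi-likelihood test, Benjamini-Hochberg adjustment over all genes and within each of the 3 contrasts), where 41.1% of all tested genes were called lower, 40.4% higher and 81.5% in either direction. The groups did not overlap for 29 of the 31, against 81.2% of all tested genes. Median log2 fold changes were -1.92 for Pol I alone, -1.41 for Pol III alone, -1.26 for the subunits shared by all enzymes and -0.47 for Pol II alone. The shared median was -0.70 after the correction for GC content and length, and the Pol II median -0.24 on log2(TPM + 0.1). POLR3G differed most, 5.09-fold lower with FB23-2, and POLR1B was 4.76-fold lower. POLR3GL was 1.33-fold higher with FB23-2 than with FB23.

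POLR1D and POLR2J2 were the genes for which no difference between the compounds was called. For POLR1D the log2 fold change of FB23-2 against FB23 was -0.10 ± 0.09 (edgeR adjusted p 0.28), with a 95% interval of -0.29 to 0.08, and for POLR2J2 it was 0.08 ± 0.17 with an interval of -0.27 to 0.43. These intervals bound the difference and do not show that the compounds act alike on either gene. POLR1A, POLR1B and POLR1C, whose values with FB23 against DMSO were close to that of POLR1D, had intervals of FB23-2 against FB23 that reached no higher than -1.63.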

How the data were processed

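Poly(A) RNA of 9 samples went into a directional library kit, per the labels' protocols. RSEM 1.2.31 and GRCh38 are named in the submitters' processing notes. No source used here gives the aligner, the annotation or the strand setting. Per the file headers, the deposited expected count is RSEM's estimate of the reads of a gene, the deposited TPM scales that estimate for length and for the library, and the deposited FPKM gives fragments per kilobase, which was not used. Each deposited row lists 1 RefSeq transcript with the same length in all files, so a planned test of transcript length could not be run, and a value refers to that transcript.

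After rounding of the expected counts, edgeR 4.0.16 (R 4.3.3) kept 13365 genes by filterByExpr (minimum count 10, minimum total 15), with TMM factors of 0.954 to 1.08. The model had a mean for each group and used all 9 libraries, and contrasts were tested two-sided by the quasi-likelihood F test. Adjusted p-values follow Benjamini and Hochberg over all tested genes, and genes under 0.05 are called. Standard errors come from the F statistic. The common biological coefficient of variation was 5.12%, and the range of expected counts per library is given with the samples. DESeq2 1.42.0 and limma 3.58.1 served as alternatives, with other scalings and filters, TPM with pseudocounts of 1 and 0.1, a replicate block, leaving out each library, and GC and length corrections.

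The 31 genes, the related lists and MYC were chosen with earlier results of these data known. 1 member is counted in the totals and medians but is not reported here by itself, and neither are 2 marker genes. The text names the other members and, of each related list, the 2 highest and 2 lowest called members by log2 fold change with FB23-2 against DMSO, besides the older Pol I symbols and CRCP.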

Additional observations from a re-analysis of the deposited data

How the results depend on the processing

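FB23-2 against DMSO gave 3 subunit genes higher under every alternative run and between 24 (on TPM) and 28 lower. FB23-2 against FB23 gave 3 higher and 24 to 26 lower. The FB23 results depended more on the processing. Leaving out a library gave 0 to 2 genes higher, 5 to 11 lower and 2096 to 3303 of all genes called, against 1, 11 and 3144. The replicate block left 7 lower, and removing trends on GC content and length, chosen after seeing the data, gave 2 higher, 14 lower and 4456 of all genes. Deviations of same-numbered libraries correlated weakly (-0.185 to 0.0856), as did those of differently numbered ones (-0.135 to 0.166). DMSO libraries correlated positively with every library of their own number (0.0257 to 0.0856), but not every library correlated best with its own number. Values this weak, from 3 libraries per group, cannot settle whether the numbers pair the libraries. The planned test of transcript length was not run because each listed length is the same in all files.

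Among the 31 genes, the signs that turned were of differences that were not called. With FB23 against DMSO, POLR2D (-0.01 as reported) was 0.0178 on library totals, 0.0263 without a filter, 0.0130 and 0.0132 on TPM with pseudocounts of 1 and 0.1 and 0.0108 with the GC and length correction. POLR2F was -0.0122 with DESeq2, -0.000186 with the replicate block, -0.0174 and -0.0184 on TPM and -0.0513 with the GC and length correction. POLR2J was -0.00815 with the length and -0.0136 with the GC and length correction, and POLR3F 0.00206 without a filter. Leaving out a library gave -0.0225 to 0.0144 for POLR2D, -0.125 to 0.115 for POLR2F, -0.0643 to 0.0685 for POLR2J, -0.0194 to 0.289 for POLR2L, -0.0482 to 0.0578 for POLR2M, -0.0152 to 0.0581 for POLR3D, -0.0602 to 0.00838 for POLR3F and -0.018 to 0.227 for POLR2J2 (FB23-2 against FB23). With FB23-2 against FB23, POLR1D was 0.0617 with upper-quartile factors, 0.0206 on library totals, 0.105 and 0.113 on TPM and 0.152 with the GC and length correction. With FB23-2 against DMSO, GTF3C1 was -0.202 (adjusted p 9.61e-07) and GTF2B 0.260 (adjusted p 0.000475) with the GC and length correction, both called in the other direction there, and GTF2B was 0.0175 with upper-quartile factors and 0.0866 and 0.0887 on TPM and GTF2A1 0.0429 and 0.0458 on TPM. The cause was not tested. Standard errors and intervals cover these libraries only.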
